A study of Mus musculus with 2 samples.

Results

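The cells described here are splenic regulatory T cells (Tregs) of the mouse that carried transcripts of at least 2 of a set of 6 genes. They are called Lrrc32 Gpr83 high cells after 2 of the genes, although 166 of the 781 CD25WT cells (21.3%) and 39 of the 156 CD25KO cells (25%) carried both Lrrc32 and Gpr83. A cell was taken when it had at least 1 unique molecular identifier (UMI, a tag that counts 1 captured RNA molecule) of at least 2 of Lrrc32, Gpr83, Ecm1, Gsta4, Jaml and Itih5, and no UMI of Ccr2, Klrg1, Sostdc1 or Mki67. The rule took 937 of the 12953 cells that passed the filters, 781 of 6051 in CD25WT and 156 of 6902 in CD25KO, and all the remaining filtered cells are called other cells. Both sets of genes were picked with the values of these libraries known, so the number of cells taken in each library is a description and not a test.

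The study asked how mouse Tregs fare without CD25, which is the Il2ra product and 1 chain of the receptor for the cytokine interleukin-2 (IL-2). CD25WT mice were CD25WT/WT-tdTomato+/+-Foxp3eGFPCretERT2+/+ and CD25KO mice CD25FL/FL-tdTomato+/+-Foxp3eGFPCretERT2+/+, so both groups carried the same reporter and the same tamoxifen-inducible Cre recombinase made in Foxp3-expressing cells. Mice of both groups were given tamoxifen at 2 mg/kg on 5 days, and spleens were taken 10 days after induction. Each group was 1 library of 2 pooled spleens, and the labels state no ages. Cells of both groups were sorted as viable, CD4+, GFP+ and tdTomato+, and CD25KO cells were further limited to those with low CD25 protein, so the deletion and this gate cannot be told apart.

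With 1 library per group there is no replicate check and no p-value. Every interval below is a 95% interval for counting error alone, which does not hold the variation between mice or preparations. For UMI sums it also leaves out the variation between cells, and some genes had many of their UMIs in 1 cell. Log2 ratios compare UMIs summed over cells and scaled to a total of 1e+06 UMIs (CPM).

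IL-2 binds a receptor made of CD25, CD122 (Il2rb) and the common gamma chain (Il2rg), and signals through the kinases Jak1 and Jak3 to the transcription factor STAT5. In Tregs STAT5 sustains Foxp3 and Il2ra themselves and switches on survival and feedback genes such as Bcl2, Cish and Socs2. Central Tregs, which recirculate through lymphoid organs with the chemokine receptor CCR7, depend on IL-2 more than effector Tregs, which carry activation and tissue-homing genes.

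The 6 genes have different roles. Lrrc32 encodes GARP, the surface protein that holds latent TGF-beta on Tregs, Gpr83 a G protein-coupled receptor typical of Tregs, Ecm1 a secreted matrix glycoprotein, Gsta4 a glutathione transferase, Jaml an adhesion protein of the immunoglobulin family and Itih5 a protein of the inter-alpha-trypsin inhibitor family. All 6 and Il2ra are protein-coding genes on the mm10 build in the GENCODE M21 annotation. Lrrc32 lies at chr7:98489283-98502181, Gpr83 at chr9:14860210-14870789, Ecm1 at chr3:95734147-95739569 and Gsta4 at chr9:78182774-78209349. Jaml lies at chr9:45079183-45108534, Itih5 at chr2:10153571-10256529 and Il2ra at chr2:11642807-11693193. In the RefSeq promoter windows (250 bases before to 50 after the start, GRCm38.p6), 4 of the 6 genes had an entry (Gpr83, Ecm1, Jaml and Itih5). The STAT motif TTCNNNGAA, which is its own reverse complement, was in 0 of these 4 windows and in 2726 of all 32851 windows (8.30%).

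The CD25WT matrix held 6620 barcodes with 36971834 UMIs and the CD25KO matrix 7530 barcodes with 36986849 UMIs. Of the barcodes, 107 occurred in both libraries, among them those of 2 CD25WT and 1 CD25KO Lrrc32 Gpr83 high cells. A rule that asks for UMIs takes deeper cells more readily. The median was 6332 UMIs and 1797 genes per cell in the CD25WT Lrrc32 Gpr83 high cells against 5063 and 1584 in the CD25WT other cells, and 4998 and 1745 against 4132.5 and 1562 in CD25KO. Ribosomal protein genes took a median of 42.1% of UMIs in the CD25WT high cells against 39.5% in the other cells, and 33.8% against 30.1% in CD25KO.

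Lrrc32 Gpr83 high cells made up 12.9% of CD25WT filtered cells (Clopper-Pearson interval 12.1 to 13.8) and 2.26% of CD25KO filtered cells (1.92 to 2.64), a ratio of 5.71. With each cell thinned to 2000 UMIs, which left out 62 CD25WT and 353 CD25KO cells, the shares were 3.17% (190 of 5989 cells) and 0.550% (36 of 6549), a ratio of 5.77. The share itself was thus lower at equal, shallower depth, while the ratio between the libraries hardly moved. Cells just inside the rule, with 2 of the 6 genes and no exclusion gene, numbered 565 in CD25WT and 140 in CD25KO. Cells just outside it, with 1 gene, numbered 1497 and 875. Another 29 CD25WT and 22 CD25KO cells carried at least 2 of the genes and were kept out by an exclusion gene.

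**Figure D1:**
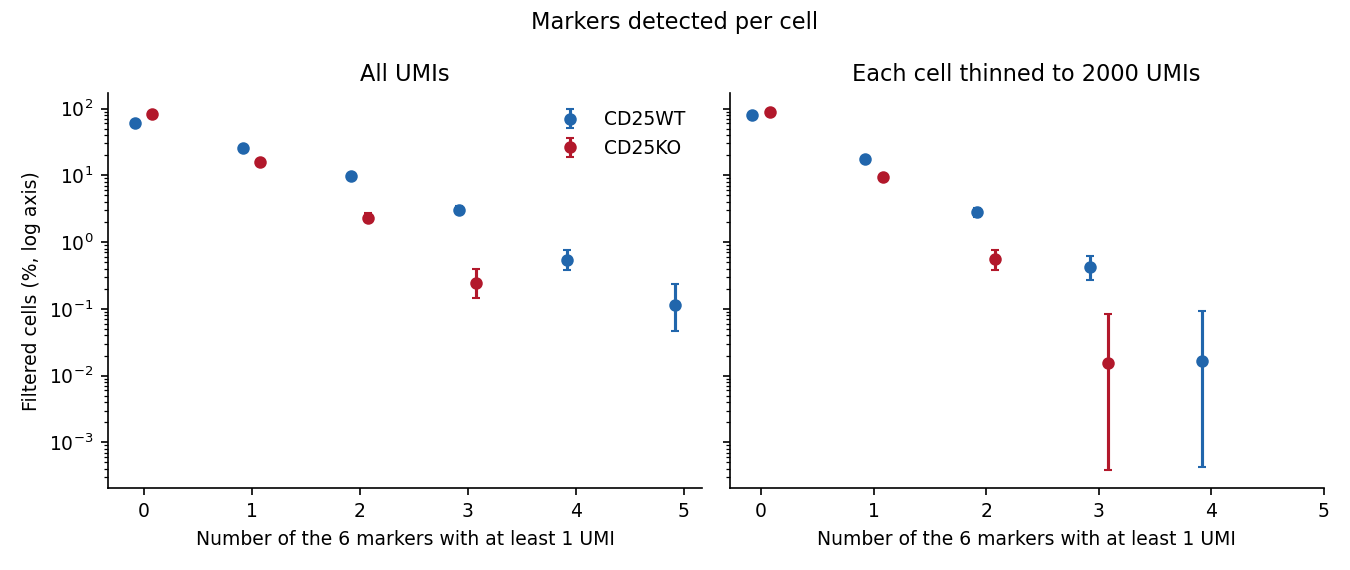
Share of filtered cells (%, log axis) by how many of the 6 genes were detected, with all UMIs (left) and with each cell thinned to 2000 UMIs (right), for CD25WT (blue) and CD25KO (red). Points are shares and bars 95% Clopper-Pearson intervals; from 1 gene upward every CD25KO point lies below the CD25WT point, and with 4 genes there were 33 CD25WT and 0 CD25KO cells, and with 5 genes 7 and 0.

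Gpr83 and Ecm1 were the genes most often seen in Lrrc32 Gpr83 high cells of both libraries. Gpr83 had a UMI in 502 of the 781 CD25WT cells (64.3%) and 103 of the 156 CD25KO cells (66.0%), and Ecm1 in 446 (57.1%) and 82 (52.6%). Lrrc32 had one in 331 (42.4%) and 67 (42.9%). Gsta4 was detected in 199 (25.5%) and 40 (25.6%), and Itih5 in 192 (24.6%) and 33 (21.2%). Jaml stood apart, with 152 CD25WT cells (19.5%) and 3 CD25KO cells (1.92%). The commonest pair was Gpr83 with Ecm1, in 261 CD25WT cells (33.4%) and 44 CD25KO cells (28.2%), so the set is a mixture of overlapping pairs rather than cells that show all 6 genes, and no cell had all 6.

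How often the genes occur together was described by leaving each out of the rule and counting it in the cells chosen by the other 5. All 6 were picked together with the values of these libraries known, so a gene left out is not independent of the others. The counts are a description and not a test. In CD25WT each of the 6 genes was more frequent in the cells so chosen than in the rest. Gpr83 was in 39.5% of 461 chosen cells (35.0 to 44.1) against 15.6% of the rest, and Ecm1 in 31.9% of 492 against 14.2%. Lrrc32 was in 21.2% of 571 chosen cells against 8.54%, and Gsta4 in 13.0% of 669 against 4.53%. Itih5 was in 13.0% of 677 against 4.24%, and Jaml in 8.31% of 686 against 3.22%. Scaled to depth, the log2 ratios of CPM in CD25WT ran from 0.98 for Ecm1 to 1.49 for Gsta4, and after thinning each of the 6 intervals still lay above 0.

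In CD25KO only 65 to 154 cells were chosen, and fewer of the genes had a log2 interval above 0. Gpr83 was in 18.5% of the chosen cells against 6.79% of the rest (log2 ratio of CPM 1.09), Gsta4 in 7.94% against 1.46% and Itih5 in 6.11% against 1.98%. For Lrrc32 (9.18% against 3.78%, log2 ratio 0.94), Ecm1 (9.76% against 5.75%, 0.59) and Jaml (0.649% against 0.978%, -0.28) the intervals crossed 0. With 98 and 82 cells chosen, the intervals of Lrrc32 and Ecm1 are wide and do not show that their co-occurrence was lost. Jaml was in 67 CD25KO filtered cells, of which 0 also had Gpr83 and 0 also had Gsta4. If independent, 4.62 and 1.06 cells would have had both, so the 0 for Gsta4 says little. Jaml was with Lrrc32 in 1 cell (2.58 if independent), with Ecm1 in 1 (3.88) and with Itih5 in 2 (1.38). After thinning, CD25KO left too few cells for this comparison. As a measure of free RNA, 16 CD25WT and 15 CD25KO B cells (Cd79a and Ms4a1 detected, no Cd3 chain, median 4361 and 3968 UMIs) had no UMI of Il2ra, Foxp3 or the rule genes other than Jaml. Jaml was in 2 B cells of each library and is not read as background. It was at 62.6 CPM in CD25KO B cells, against 4.23 in CD25KO high cells and 2.52 in the other cells. In CD25WT it was at 32.8, 40.1 and 3.65 CPM. The source of the Jaml UMIs in B cells was not tested. So few B cells bound the background loosely, since a count of 0 allows up to 3 cells.

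**Figure D2:**
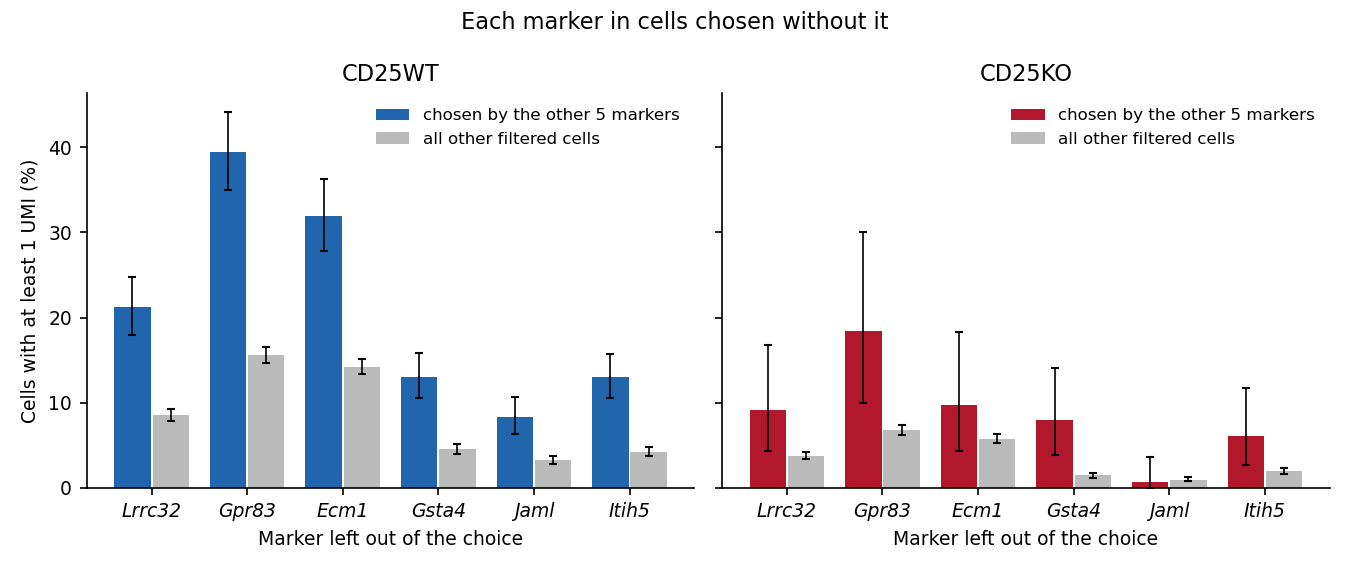
Percent of cells with at least 1 UMI of each of the 6 genes, in cells chosen by the other 5 genes (coloured) and in all other filtered cells (grey), for CD25WT (left) and CD25KO (right), with 95% Clopper-Pearson bars. In CD25WT the coloured bar is the higher for each gene; in CD25KO the bars of Jaml overlap near 1%.

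The cells were checked against lineage markers. The 8 CD4 T cell markers summed to 5287 CPM in the CD25WT high cells and 6916 CPM in the CD25KO high cells, with none at 0, beside 6150 and 7455 CPM in the other cells. The 5 Treg markers Foxp3, Ikzf2, Il2ra, Ctla4 and Tnfrsf18 summed to 1440 and 2159 CPM, beside 1116 and 2061 CPM in the other cells. Foxp3, the lineage factor, is a weak transcript here, with a UMI in 27.0% of CD25WT and 16.7% of CD25KO high cells, against 14.3% and 9.83% of other cells. Ikzf2 (Helios) was in 86.9% and 89.7%, against 65.7% and 85.8%. Markers of CD8 T cells, natural killer cells and platelets were at or under 14.8 CPM in the high cells of both libraries. The 7 myeloid markers came to 94.1 and 110 CPM, below the other cells (132 and 156), but Cst3 alone gave 506 of the 514 CD25WT UMIs and all 104 CD25KO UMIs, and Lyz2, S100a8, S100a9 and Itgam were at 0 in the high cells of both libraries. The 10 B cell markers came to 200 CPM in CD25WT against 333 in the other cells, and to 673 against 570 in CD25KO, where Ms4a1, H2-Ab1 and Ebf1 were at 0. Of the 637 UMIs behind the sum in CD25KO high cells, 466 were Ighm and 129 Cd74, and the part of B cell RNA in the CD25KO values was not tested. The 5 erythroid markers came to 6495 CPM in CD25WT against 3942 in the other cells, and to 84.5 against 2442 in CD25KO, and 3 CD25WT high cells held nearly all of the former.

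Il2ra, which was not in the rule, had the highest mean log2 ratio over both libraries of the genes ranked. In CD25WT it stood at 261.65 CPM in the high cells and 99.5 CPM in the other cells (log2 ratio 1.39), with a UMI in 62.9% against 30.6% of cells. In CD25KO, where Il2ra is the targeted gene, it stood at 63.4 and 31.5 CPM (1.01), with a UMI in 24.4% against 11.6%. Both groups of CD25KO cells were thus below both groups of CD25WT cells, although transcripts remained, and the labels do not name the deleted exons. Thinned to 2000 UMIs, 35.8% of CD25WT high cells had an Il2ra UMI against 17.1% of other cells, and 6 of 36 (16.7%) against 6.22% in CD25KO.

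Read the other way, the share of Lrrc32 Gpr83 high cells was higher the more Il2ra UMIs a cell had. In CD25WT it was 7.35% among cells with no Il2ra UMI, 15.7% with 1, 25.1% with 2 and 38.1% with 3 or more. In CD25KO it was 1.94%, 4.14%, 5.70% and 6.67%, the last from 4 of 60 cells. At the same raw Il2ra count the share was lower in CD25KO at each of the 4 steps, but depth was not matched between the libraries. Depth was higher along the same steps, from a median of 4813 to 6769.5 UMIs in CD25WT and from 4109 to 7065 in CD25KO. In thinned cells the CD25WT shares were 2.48%, 4.74%, 10.9% and 13.4%. The order of the 4 steps was thus the same at equal depth. The steps with 2 (21 of 193 cells, 6.86 to 16.2) and with 3 or more (9 of 67, 6.33 to 24.0) had overlapping intervals. The thinned CD25KO shares were 0.489%, 1.11%, 2.44% (1 of 41 cells) and 11.1% (1 of 9), too few cells to order.

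The other parts of the receptor differed less. Il2rb was at 269 CPM in the CD25WT high cells and 163 CPM in the other cells (0.73), and at 218 and 198 CPM (0.14) in CD25KO. Il2rg, Jak1 and Stat5b had log2 ratios between -0.29 and 0.13 in both libraries, and Stat5a had 0.27 and 0.50. Of the 6 measured genes of the receptor list, 2 passed 1.5-fold upward in the CD25WT high cells (0.83% of all genes measured there did) and 1 in the CD25KO high cells (2.01% of all genes), with 0 lower.

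Among genes that respond to IL-2 and STAT5, several were higher in the CD25WT high cells. Myc, a driver of cell growth, was at 89.7 CPM against 30.4 in the other cells (log2 ratio 1.56). Cish and Socs2, feedback inhibitors of cytokine signalling, were at 95.03 against 43.5 (1.13) and 56.6 against 33.0 (0.78). Bcl2, which keeps cells alive, was at 694 against 378 (0.88), and Socs1 at 159 against 99.8 (0.67). The list had a median of 0.35 beside -0.06 for all genes. Of its 20 measured genes, 9 passed 1.5-fold upward (0.83% of all genes did) and 2 downward (1.81% did). The lower ones include Icos (-1.22), a costimulatory receptor of effector Tregs. All of these ratios kept their sign when the other cells were limited to those with 1 of the 6 genes and no exclusion gene, where Myc had 0.91, Cish 1.02 and Bcl2 0.51.

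In CD25KO Myc, Cish, Bcl2 and Socs2 were lower in both groups of cells than in the CD25WT high cells. Cish was near its level in the CD25WT other cells. Myc was at 16.9 CPM in the high cells and 14.7 in the other cells, from 16 UMIs in 10 of the 156 cells. Cish was at 44.4 and 38.6, Bcl2 at 226 and 169 (0.42), and Socs2 at 8.45 and 20.2, from 8 UMIs in 5 cells. Of the list, 2 of 19 genes passed 1.5-fold upward (2.01% of all genes did) and 4 downward (5.81% did), and the median was 0.14. The log2 ratio of Myc in CD25KO minus that in CD25WT was -1.36 (-2.10 to -0.63), that of Cish -0.92 (-1.39 to -0.46), that of Bcl2 -0.45 (-0.66 to -0.25) and that of Il2rb -0.59 (-0.81 to -0.38). For Myc and Cish the CD25KO ratio, and so this difference, was not stable to how the cells were chosen. With cells thinned to 2000 UMIs (36 CD25KO high cells) their CD25KO log2 ratios were 1.18 and 1.06, and with at least 3 of the genes required (16 cells) 2.04 and 1.06. Against other cells with 1 gene and no exclusion gene, Myc was at -0.45 in CD25KO. The direct comparison of CD25KO with CD25WT high cells is given further on and did not turn under these settings.

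**Figure D3:**
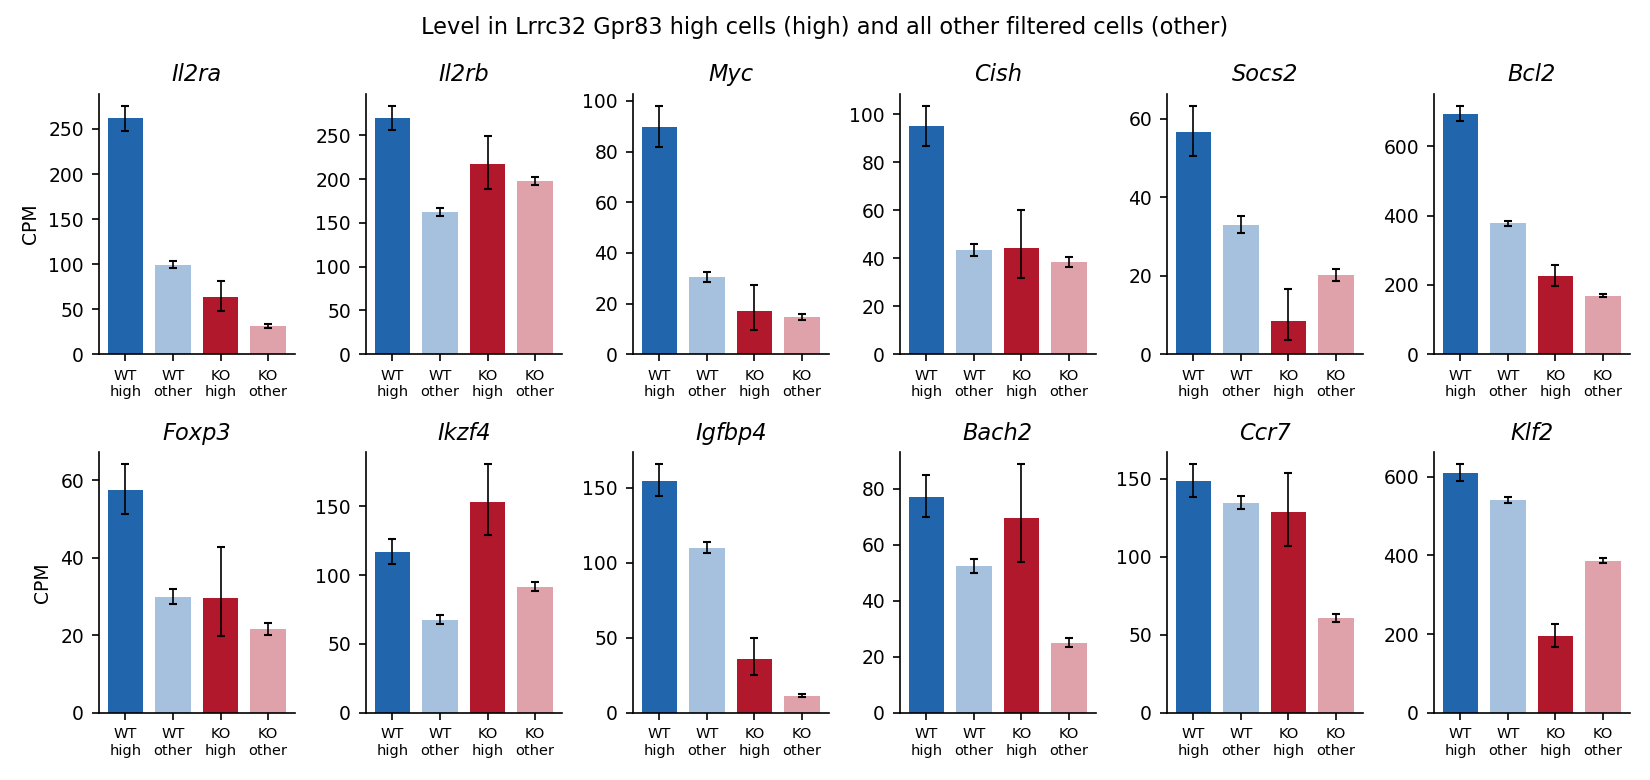
Level (CPM, axes from 0) of 12 genes in Lrrc32 Gpr83 high cells and all other filtered cells of CD25WT (WT, blue) and CD25KO (KO, red), with 95% Poisson bars for counting error. Il2ra, Myc, Cish, Socs2, Bcl2 and Foxp3 are highest in the CD25WT high cells. Bach2 and Ccr7 are near equal in CPM in the high cells of both libraries, a scale on which the median gene was 0.21 (log2) higher in CD25KO.

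The levels of several genes went up with the number of the 6 genes detected in CD25WT, among cells without an exclusion gene. Il2ra was at 92.9 CPM with 0 genes, 129 with 1, 244 with 2 and 304 with 3 or more. Myc followed with 24.3, 47.9, 82.0 and 108 CPM, and Bcl2 with 366, 487, 624 and 859 CPM. Cish was at 43.2, 46.9, 83.5 and 122 CPM, so it hardly differed between 0 and 1 gene and was higher from 2 on. Ctla4, at 123, 108, 120 and 131 CPM, and Ccr7, at 142, 150, 149 and 149 CPM, showed no such steps. The median depth went over the same steps from 4773 to 6774.5 UMIs, and its part was not tested beyond the thinned values above. In CD25KO Il2ra was at 30.8, 48.8, 59.0 and 100.5 CPM, while Myc was not in order at 14.7, 23.0, 11.8 and 60.3 CPM, the last value from 6 UMIs in 16 cells. Ranked over both libraries by their ratio of 3 or more genes over 0 genes, the genes most like the 6 were Myc, Gsto1 (a glutathione transferase of the omega class), Il2ra, Sh3bp5, Swap70 and Lta (lymphotoxin alpha), with mean log2 ratios of 2.09, 1.90, 1.71, 1.53, 1.53 and 1.33. The CD25KO values of Gsto1, Swap70 and Lta behind that rank are 5 UMIs or fewer each at the top step.

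**Figure D4:**
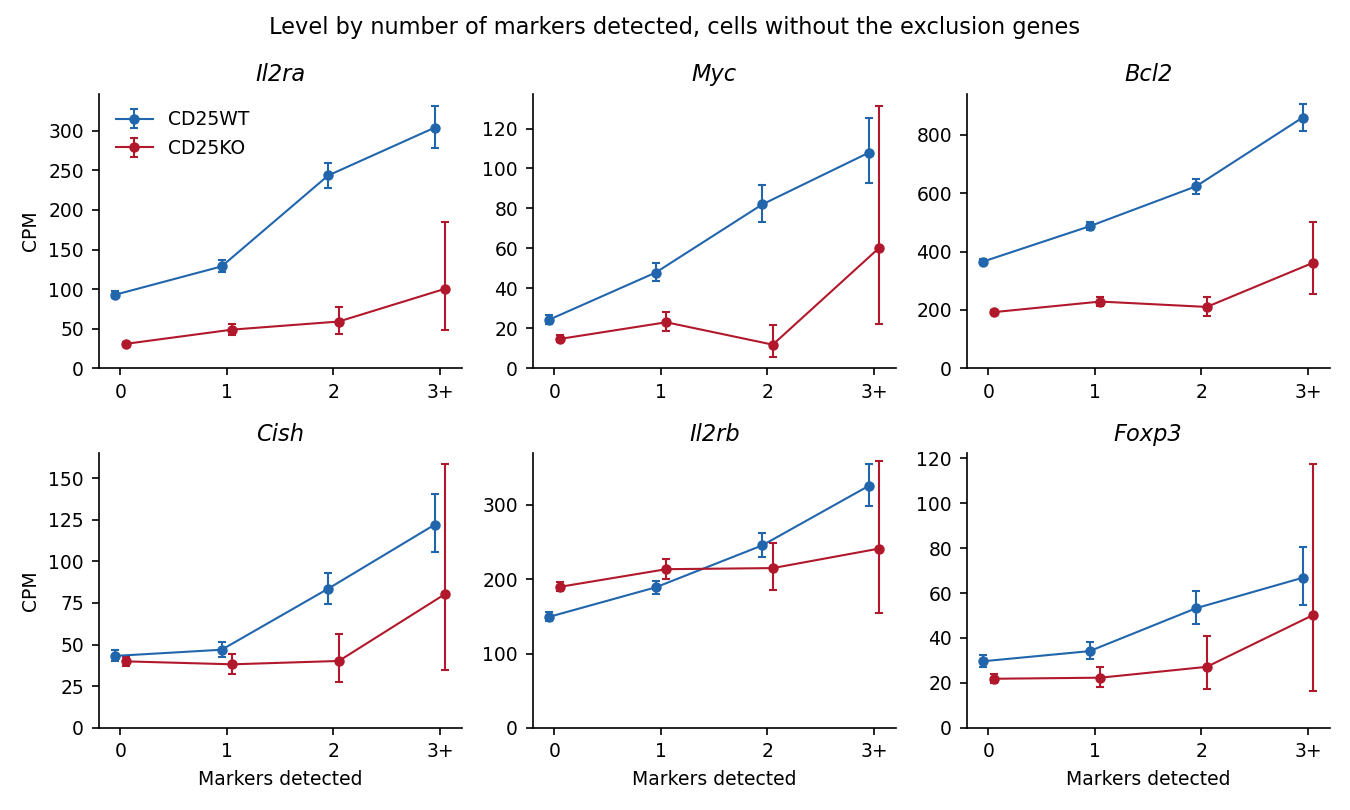
Level (CPM, axes from 0) of 6 genes by the number of the 6 rule genes detected (0, 1, 2, 3 or more), in cells without an exclusion gene, for CD25WT (blue) and CD25KO (red) with 95% Poisson bars. In CD25WT each gene is highest at 3 or more; the CD25KO bars at 3 or more come from 16 cells and are wide.

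The high cells were not uniform in these genes, and among splits by each of the 6 rule genes in CD25WT the widest differences in Myc, Il2ra and Foxp3 were by Lrrc32. Since each cell needed at least 2 genes, cells without a given gene are those that qualified through others. In CD25WT the 331 cells with Lrrc32 had 138 CPM of Myc against 51.4 CPM in the 450 without (log2 ratio 1.42, 1.14 to 1.71), 350 against 191 CPM of Il2ra (0.87), 77.1 against 41.5 CPM of Foxp3 (0.89) and 822 against 592 CPM of Bcl2 (0.47). In CD25KO, 14 of the 16 Myc UMIs and 39 of the 60 Il2ra UMIs lay in the 67 cells with Lrrc32, which gave 35.2 against 3.65 CPM of Myc and 97.9 against 38.3 CPM of Il2ra. Cells with Lrrc32 thus had more Myc and Il2ra than cells without it in both libraries. Cells with Gsta4 went the opposite way in CD25WT, with 187 against 288 CPM of Il2ra (-0.62) and 65.4 against 98.3 CPM of Myc (-0.59). CD25WT cells with Jaml also had more Il2ra (358 against 240 CPM, 0.58) and Myc (114 against 84.2 CPM, 0.44) than cells without it, and more Socs2 (1.06), Igfbp4 (0.76) and Bcl2 (0.60). For Gpr83 the Il2ra difference was -0.05, with an interval from -0.21 to 0.11. Within the CD25WT high cells, the 491 with an Il2ra UMI had more Cish (121 against 43.7 CPM), Myc (111 against 47.0) and Bcl2 (801 against 483) than the 290 without. In CD25KO the intervals for these 3 genes crossed 0 between the 38 cells with and the 118 cells without an Il2ra UMI.

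Genes of the central, resting state went both ways. In CD25WT 1 of 16 listed genes passed 1.5-fold upward in the high cells and 1 downward (median 0.19), where 0.83% and 1.81% of all genes did. In CD25KO 4 of 15 did so upward and 3 downward (median 0.42), where 2.01% and 5.81% of all genes did. Bach2, a repressor that holds back effector genes, was at 77.1 CPM in the CD25WT high cells and 52.4 in the other cells (0.56), and at 69.7 and 24.97 (1.48) in CD25KO. Ccr7 was at 149 and 135 CPM (0.14) in CD25WT and at 129 and 60.7 (1.09) in CD25KO. In CPM the levels of both genes in the high cells were thus close between the libraries, and the other cells had less in CD25KO. This closeness depends on the scaling. Over all genes the median log2 ratio of CD25KO over CD25WT was 0.21 in the high cells and 0.20 in the other cells. Relative to that median both genes were lower in the CD25KO high cells. Igfbp4, which binds insulin-like growth factors, was at 155 and 110 CPM (0.49) in CD25WT and at 35.9 and 11.4 (1.66) in CD25KO, the latter from 34 UMIs in 14 cells, and the CD25KO ratio was 0.25 without Ecm1 in the rule. For Igfbp4, Bach2 and Ccr7 the CD25KO ratio exceeded the CD25WT ratio by 1.17 (0.65 to 1.68), 0.92 (0.53 to 1.32) and 0.94 (0.66 to 1.23). None of the 34 Igfbp4 UMIs lay in the 16 CD25KO cells with 3 or more genes. Klf2, which drives the egress receptor S1pr1, was at 610 against 541 CPM (0.17) in CD25WT. In CD25KO it went the opposite way to Igfbp4, Bach2 and Ccr7, with 196 against 386 CPM (-0.98).

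Against all other cells, most genes past 2-fold were lower in the high cells. In CD25WT 35 of 4696 measured genes lay 2-fold or more apart (0.745%), 30 of them lower in the high cells (0.639%) and 5 higher (0.106%). In CD25KO 79 of 5267 did (1.5%), 70 of them lower (1.33%) and 9 higher (0.171%). With ribosomal and mitochondrial genes left out of the total, the share of these genes that were higher was 22.9% rather than 14.3% in CD25WT and 25.3% rather than 11.4% in CD25KO. In CD25WT this balance depended on the cells compared. Against other cells without exclusion genes 8 genes were higher and 16 lower, and against other cells with 1 of the 6 genes and no exclusion gene 6 were higher and 3 lower (66.7% higher). In CD25KO the same comparisons gave 7 higher and 26 lower, and 4 higher and 24 lower. Of the 30 genes lower in CD25WT, 29 were also below 0 in CD25KO and 19 were 2-fold lower there as well. Upward the libraries shared less: of 27 genes at least 1.5-fold higher in CD25WT and measured in both, 18 were above 0 in CD25KO and 4 were 1.5-fold higher there, while downward it was 84, 72 below 0 and 39. The 2 libraries hold different cells, but the rule that chose the cells is the same. The 12 genes highest by the mean of both libraries, among genes that went the same way in each, were Il2ra, Igfbp4, Bach2, Ift80 (an intraflagellar transport protein), Ikzf4 (Eos, a partner of Foxp3), Rgs1 (a brake on G protein signalling), Capn3, Foxp3, Cish, Mxd1, Bmyc and Igf2r. Ikzf4 was at 117 against 67.7 CPM (0.79) in CD25WT and 153 against 91.6 (0.74) in CD25KO, though -0.04 in CD25KO when at least 3 of the genes were required. Capn3 turned in CD25KO with cells thinned to 3000 UMIs (-0.22) and in cells with a Foxp3 UMI (-1.28).

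Effector Treg genes were lower as a group. Of the 15 measured in CD25WT 12 were at least 1.5-fold lower, and of the 17 in CD25KO 15 were, with 0 higher in either and medians of -1.28 and -1.50. Of all genes 1.81% in CD25WT and 5.81% in CD25KO were as low. S100a4, a calcium-binding protein of migrating cells, was at 5.86 CPM in the CD25WT high cells and 196 in the other cells (-5.07), and at 126 and 620 (-2.30) in CD25KO. S100a6 had -4.12 and -2.66, S100a11 -2.11 and -1.16, Anxa2 (annexin A2) -1.86 and -1.72, and Lgals1 (galectin-1) -1.28 and -2.06. Cxcr3, a chemokine receptor of inflamed tissue, had -2.13 and -1.46, and Id2, an effector transcription regulator, -1.58 and -1.50. Ccr2 and Klrg1, both effector genes, were exclusion genes of the rule. Against other cells that also lacked the 4 exclusion genes the gap was smaller but kept its sign, with -3.37 and -1.27 for S100a4 and -1.03 and -0.89 for Anxa2.

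Cell cycle genes were lower too, but Mki67, itself a cell cycle gene, is an exclusion gene, so these values are not independent of the rule. Top2a (-2.29 in CD25WT and -1.90 in CD25KO), Stmn1 (-1.60 and -2.21), Hist1h2ap (-2.92 and -3.29), Hist1h2ae (-2.19 and -2.44) and Hmgb2 (-1.28 and -1.63) were among the 12 lowest genes by that mean. Against other cells without exclusion genes, Top2a and Stmn1 were 0.06 and 0.25 higher in CD25WT and 0.36 and 0.45 higher in CD25KO. On that footing the high cells did not stand below the rest in these 2 genes.

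**Figure D5:**
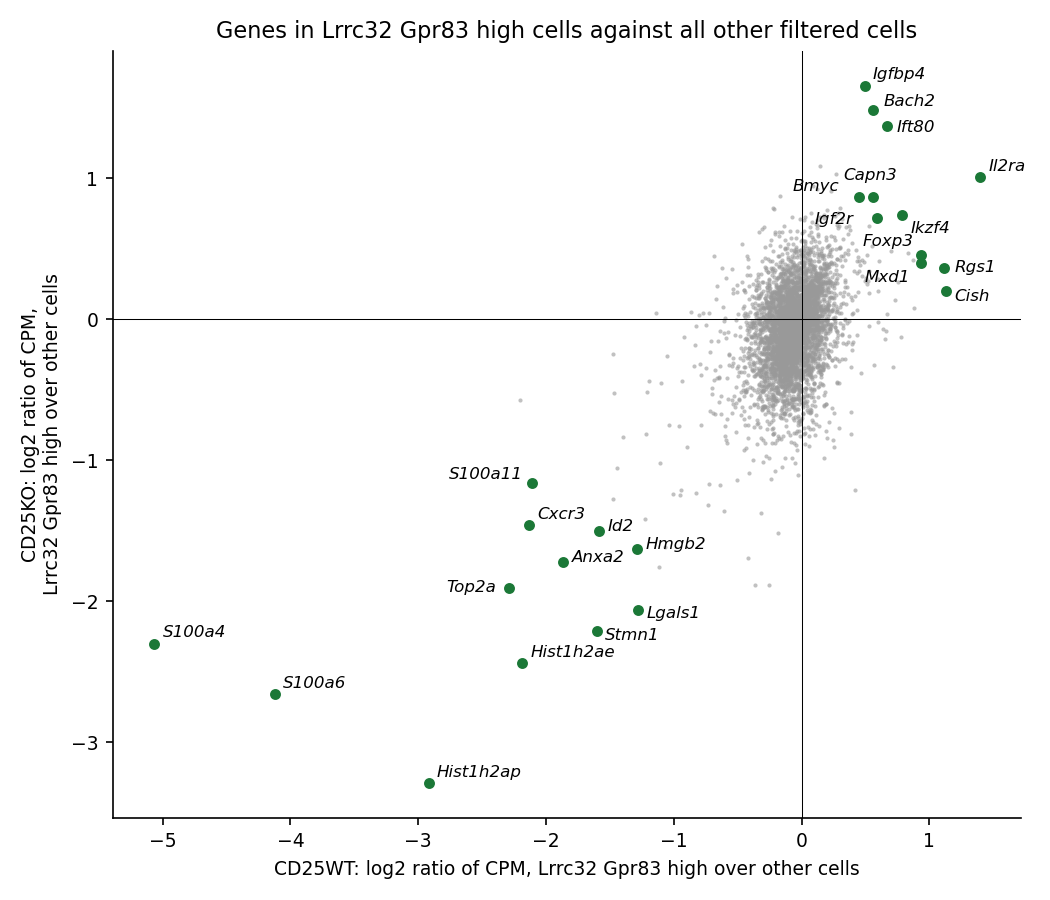
Log2 ratio of CPM of Lrrc32 Gpr83 high cells over all other filtered cells in CD25WT (x) and CD25KO (y), 1 point per gene measured in both libraries; the 24 green genes are the 12 highest and 12 lowest by the mean of both, and haemoglobin genes are not plotted. Il2ra lies at 1.39 and 1.01 and S100a4 at -5.07 and -2.30, and these ratios against all other cells reach further down than up.

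Lists with other roles had medians nearer 0, with members on both sides. Medians in CD25WT and CD25KO were 0.05 and -0.01 for TGF-beta activation and signalling, 0.02 and -0.04 for T cell receptor activation, -0.03 and 0.00 for suppressive molecules and -0.01 and 0.11 for growth restraint. Tgfb1, the ligand that GARP holds, was at 87.3 against 85.0 CPM in CD25WT and 86.7 against 106 in CD25KO. Ctla4, an inhibitory receptor of Tregs, was at 123 against 118 and 132 against 152 CPM. The interferon response had -0.06 and -0.23, glutathione and redox -0.18 and -0.37, trafficking receptors -0.17 and -0.40, follicular regulatory genes -0.18 and -0.06, ST2 tissue-type genes -0.32 and -0.40, and dissociation stress genes -0.11 and -0.18. Treg identity genes had 0.21 and 0.24. Of 14, 3 were past 1.5-fold upward in each library (0.83% and 2.01% of all genes were) and 1 downward (1.81% and 5.81% were). Among trafficking receptors in CD25KO, 5 of 12 passed 1.5-fold downward (5.81% of all genes did) and 1 upward (2.01% did). None of these medians reached 1.5-fold.

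CD25KO and CD25WT Lrrc32 Gpr83 high cells were then compared with each other. Of 4938 measured genes, 288 lay 2-fold or more apart (5.83%), with 231 higher in CD25KO (4.68%) and 57 lower (1.15%). Among the other cells it was 174 of 5079 (3.43%), with 147 higher (2.89%) and 27 lower (0.532%). The CD25KO high cells held 946231 UMIs in sum and the CD25KO other cells 34518860. Counting error alone puts more genes past 2-fold in the smaller sum, so these shares do not show which cells differed more between the libraries. The median of all genes was 0.21, and scaling moved it. Under TMM factors it was -0.07, and 52.2% of the genes past 2-fold were then higher in CD25KO, rather than 80.2%. With median-of-ratios factors this share was 60.3%, and without ribosomal and mitochondrial genes 66.4%. The values below are not corrected for that shift.

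Il2ra (log2 ratio -2.04, -2.44 to -1.67) and several of the IL-2 responsive genes were lower in CD25KO high cells. Myc had -2.41 (-3.23 to -1.69), Socs2 -2.74 (-3.97 to -1.75), Bcl2 -1.62 (-1.82 to -1.42), Cish -1.10 (-1.59 to -0.64) and Foxp3 -0.95 (-1.57 to -0.39). In cells, Bcl2 had a UMI in 90.0% of CD25WT and 64.1% of CD25KO high cells, Myc in 30.5% and 6.41%, and Cish in 36.0% and 21.2%. Of the list, 7 of 20 genes passed 1.5-fold downward (3.46% of all genes did) and 4 upward (17.3% did), and the median was -0.13 beside 0.21 for all genes. The higher ones included Icos (1.98) and Tnfrsf4 (1.16, the costimulatory receptor OX40). Across all alternatives that measured them, Myc ran from -2.76 to -0.84, Bcl2 from -1.89 to -1.25, Foxp3 from -1.36 to -0.03 (in cells chosen for a Foxp3 UMI) and Cish from -1.37 to -0.22 (thinned to 2000 UMIs). Other genes among the 10 lowest were Mtmr9 (-2.90), Xxylt1 (-2.52), Tent5a (-2.17), Igfbp4 (-2.11), Ly6c1 (-2.02), Treml2 (-1.71) and Klf2 (-1.64). Most of these genes were also lower in CD25KO among the other cells, with -1.66 for Il2ra, -1.16 for Bcl2, -1.05 for Myc, -0.71 for Socs2 and -0.17 for Cish. Igfbp4 (-3.27) and Ly6c1 (-2.44) were further apart there than in the high cells, Mtmr9 had -2.66, Treml2 -1.41, Xxylt1 -1.08, Klf2 -0.49 and Foxp3 -0.48, and Tent5a had 0.09. Ly6c1 was 0.40 higher with cells thinned to 2000 UMIs.

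Klf2 and its target S1pr1, genes of recirculation, were lower in the CD25KO high cells. Klf2 was at 196 CPM against 610 in CD25WT and S1pr1 at 97.2 against 266 (-1.45). Ccr7 (-0.21) and Bach2 (-0.14) had intervals that included 0, without correction for the median of 0.21 over all genes. Of 15 central genes 6 passed 1.5-fold downward and 1 upward (3.46% and 17.3% of all genes did), and the median was -0.50 beside -0.64 among the other cells. Growth restraint genes had a median of -0.63, beside -0.70 among the other cells, with Tsc22d3 (-1.48) and Txnip (-1.10) lower. Of 12 measured, 6 passed 1.5-fold downward and 1 upward in the high cells, and 6 and 0 in the other cells. Of all genes 3.46% and 17.3% did so in the high cells, and 1.32% and 9.1% in the other cells.

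Effector genes were the reverse. Of 15 measured, 12 passed 1.5-fold upward in CD25KO high cells and 1 downward, where 17.3% and 3.46% of all genes did, and the median was 1.69. Maf, an effector and follicular transcription factor, was at 434 CPM against 50.7 (3.10), with a UMI in 59.0% against 13.3% of cells. Batf, a transcription factor of effector Tregs, was higher by 1.86 on the log2 scale, and Itgb1, an integrin subunit of the trafficking list, by 1.80. S100a4 was higher by 4.42 and S100a6 by 3.60, but the 119 S100a4 UMIs came from 13 of the 156 CD25KO high cells, 40 of them from 1 cell. The effector list had a median of 1.54 among the other cells, with 16 of 17 genes past 1.5-fold upward (9.1% of all genes were), so a difference of like size stood there too.

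Some of the highest genes in CD25KO high cells rested on few cells. Cxcl10, a chemokine that attracts CXCR3+ cells, had 98 UMIs in 22 cells in CD25KO and 12 UMIs in 8 cells in CD25WT (5.56). Penk, which encodes proenkephalin, had 153 UMIs in 18 CD25KO high cells, 63 of them in 1 cell, and 113 in 20 CD25WT high cells (2.97). Il1r2, a decoy receptor for interleukin-1 of follicular regulatory cells, had 60 UMIs in 24 cells against 17 in 9 (4.35). Tox2 (3.21), Nav2 (3.21), Ttn (3.02, titin) and Cybb (2.82, a subunit of the phagocyte oxidase) completed the 10 highest. Among the other cells the 10 genes had log2 ratios of CD25KO over CD25WT from 0.96 to 2.43, so all were higher there too. The list counts that follow stand beside 17.3% of all genes past 1.5-fold upward and 3.46% downward. Follicular regulatory genes had 5 of 6 members past 1.5-fold upward and a median of 1.36, beside 0.95 among the other cells. Treg identity genes had 7 of 14 higher and 2 lower (median 0.64), with Ikzf2 at 1703 against 831 CPM (1.04) and Nrp1 at 194 against 95.6 (1.02). Suppressive molecules had 3 of 5 higher (median 0.81), among them Lag3 (2.65), an inhibitory receptor, and Pdcd1 (1.75). Itgb8, a subunit of the integrin that releases TGF-beta from GARP, was at 41.2 against 13.9 CPM (1.57), while Tgfb1 was at 86.7 against 87.3 (-0.01).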

How the data were processed

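Splenic Tregs were profiled by droplet single-cell 3' RNA sequencing. The deposited matrices hold raw UMI counts per gene and barcode, produced by Cell Ranger 6.0.0 (per the file headers) on mm10 (per the submitters' processing notes), with an annotation not given in the sources used here.

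The members, gene lists, alternatives and the rule for named genes were chosen with earlier results of these data known. Cells had at least 500 detected genes, at most 10% mitochondrial UMIs (510 CD25WT and 578 CD25KO barcodes failed) and no Cd79a UMI, a B cell gene (59 and 50 more). No doublet caller was run, and cells in the top 5% of UMIs were removed as an alternative. UMIs were summed per group with Python 3.11.15, numpy 2.4.6 and scipy 1.17.1. Ratios have exact conditional Poisson intervals, and a difference between log2 ratios has a normal interval from the sums. A gene was measured at a mean of at least 20 CPM and at least 50 UMIs, without the 11 rule genes, and Myc and Socs2 below that minimum are given with their UMIs. The ratio step was tested on simulated counts.

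Named genes are the 12 highest and 12 lowest by the mean log2 ratio of both libraries among genes of 1 direction, the 10 highest and 10 lowest between libraries, the receptor list, up to 4 per other list, and the 6 most like the rule genes. Receptor segments and ribosomal, mitochondrial, haemoglobin, sex-linked and unnamed genes stayed out. Ikzf2, Nrp1, Socs1, Batf and Txnip, and the splits of high cells by gene carried, were chosen after their values were seen. Alternatives were thinning to 2000 or 3000 UMIs, at least 3 rule genes, each rule gene left out, other cell filters and comparison cells, 5 depth bins (set after seeing depths), TMM (edgeR 4.0.16), median-of-ratios, other totals, equal weight per cell and other gene minimums. Leaving out shared barcodes, leaving out cells with at least 100 haemoglobin UMIs, and requiring an Ikzf2 or Foxp3 UMI were chosen after seeing the data.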

Additional observations from a re-analysis of the deposited data

Results flagged for a closer look

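Haemoglobin genes went opposite ways in the Lrrc32 Gpr83 high cells of the 2 libraries, and the difference was not tested. Log2 ratios of high over other cells in CD25WT and CD25KO were 0.85 and -6.11 for Hba-a1, 0.997 and -4.78 for Hba-a2, and 0.64 and -4.53 for Hbb-bs. In CD25WT 3 high cells with at least 100 haemoglobin UMIs held all but 830 of the 35426 haemoglobin UMIs, and CD25KO had 0 such high cells and 80 UMIs.

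Outside the filtered cells, 4 of the 59 CD25WT cells left out for Cd79a and 13 of the 510 CD25WT barcodes that failed the gene or mitochondrial limit also met the marker rule. These cells entered no comparison, and both counts are smaller shares than the 12.9% of CD25WT filtered cells.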

How the results depend on the processing

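No paired analysis was possible because each group was 1 library, and for the same reason no library could be left out. The ratio of the 2 shares, 5.71, was 15.4 with at least 3 genes required, 8.09 without Gpr83 in the rule, 6.84 without Ecm1 and 6.997 with at least 1000 genes and at most 5% mitochondrial UMIs. Counts of genes 2-fold apart depend on the gene minimum and on how many cells are summed. In CD25WT high against other cells the count was 35, and it was 122 with cells thinned to 2000 UMIs, 55 with at least 3 genes, 9 against other cells with 1 gene, 129 and 19 at minimums of 5 and 50 CPM, and 5560 with at least 1 UMI. In CD25KO it was 79 (1.5%), and 1227 and 468 with cells thinned to 2000 and 3000 UMIs, 999 with at least 3 genes, 151, 147 and 187 without Lrrc32, Gpr83 and Ecm1, 31 without exclusion genes, 186 with the stricter cell filter, 700 in cells with a Foxp3 UMI, 33 against other cells without exclusion genes, 28 against those with 1 gene, 470 and 32 at 5 and 50 CPM, and 7712 with at least 1 UMI. Between CD25KO and CD25WT high cells it was 288 (5.83%), and 81 with cells thinned to 2000 UMIs, 592 with at least 3 genes, 444 in cells with a Foxp3 UMI, 568 and 112 at 5 and 50 CPM, and 5220 with at least 1 UMI.

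Of the values of named genes under the alternatives, 7556 stayed within the counting interval, 1392 moved outside it and 41 turned; of the list medians 1105 held, 203 moved and 2 turned. Turned values are log2 ratios that were at least 1.5-fold, and the cause was not tested, except that Mki67 is itself in the rule. Without exclusion genes in the rule, Hist1h2ap, Hist1h2ae, Top2a and Stmn1 in CD25WT were at 0.52, 0.17, 0.84 and 0.78, and Hist1h2ap and Hist1h2ae in CD25KO at 0.31 and 0.024. Against other cells without exclusion genes, Top2a and Stmn1 were at 0.061 and 0.25 in CD25WT, and Top2a, Stmn1, Hist1h2ap, Hist1h2ae and the cell cycle median at 0.36, 0.45, 0.61, 0.69 and 0.19 in CD25KO. Against other cells with 1 gene, Top2a and Stmn1 were at 0.31 and 0.22 in CD25WT, and the same 4 genes and the cell cycle median at 0.35, 0.50, 1.18, 0.73 and 0.036 in CD25KO. In CD25KO, high over other cells, Hist1h2ae was at 0.63 and Rtp4 at 0.26 with cells thinned to 2000 UMIs, and Hist1h2ae at 0.069 without the top 5% of cells by UMIs. With cells thinned to 3000 UMIs, Capn3, S1pr1 and Egr1 were at -0.22, 0.35 and 0.34 there. With at least 3 genes Ikzf4 and Egr1 were at -0.043 and 0.45, in cells with a Foxp3 UMI Capn3 and Irgm1 at -1.28 and 0.28, and with the stricter cell filter Penk at -0.65. In CD25WT Cenpa was at 0.12 with cells thinned to 2000 UMIs. Between the libraries' high cells, thinning to 2000 UMIs gave Hmgb2 -0.47, Ly6c1 0.40, Il18r1 -0.51, Rora -0.60, Rtp4 0.18 and Mcm7 -0.92. Mcm7 was also at -0.81 thinned to 3000 UMIs, -0.13 with at least 3 genes and -1.50 in cells with a Foxp3 UMI, Jun was at 0.16 thinned to 3000 UMIs, and Sh3bp5 at 0.24 with at least 3 genes. Thinned to 2000 UMIs, the CD25KO values rest on 36 cells, so depth limits what they show.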
